A study of Canis lupus familiaris with 12 samples.

Results

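MDCK cells, an epithelial line from dog kidney, transfected with Slug were compared with MDCK cells transfected with E47 on 8 of the 12 arrays of the series. The groups are the 4 arrays whose titles name Slug and the 4 whose titles name E47. Each transfectant has samples numbered 1 and 2. Each numbered sample was hybridised against MDCK-CMV control cells on 1 array with the transfectant in Cy5 and on 1 with it in Cy3. The remaining 4 arrays hold the Snail transfectant against the same control. All groups are of 1 cell line and share the control, MDCK-CMV. The labels give neither the constructs nor the number of clones. They also leave unsaid whether the numbered samples are separate cultures, and p-values here reflect only how far these samples vary, which may be technical. The arrays carry human cDNA clones of cancer-related genes, and the RNA is from dog cells.

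Slug, the zinc finger product of SNAI2, and E47, a basic helix-loop-helix product of TCF3, bind E-box sequences and are known as repressors of CDH1, the gene of E-cadherin. E-cadherin holds epithelial cells together at adherens junctions, and MDCK cells that lose it can take on a mesenchymal shape. E proteins such as E47 bind DNA as dimers. The ID proteins pair with E proteins through the same domain and, lacking a DNA-binding region, keep them off DNA.

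The directions given here are assumed. Every value is a log2 ratio of the channels of an array, read as transfectant over control, and the labels do not say which channel is the numerator. As deposited, the arrays of Slug 1 and Slug 2 with the same dye in the title correlated across probes with r = -0.46 (Cy5) and -0.48 (Cy3), and those of E47 1 and E47 2 with r = -0.61 (Cy5) and 0.42 (Cy3). Both Slug 1 arrays and the E47 2 array titled Cy5 were therefore multiplied by -1, and each transfectant was given the sign that puts CDH1 below the control. This was decided with the values in view, and a low CDH1 is no finding. After turning, arrays of 1 numbered sample correlated with r between 0.31 and 0.65 in Slug and between 0.26 and 0.74 in E47. The low values were those of Slug 2 and E47 1. Arrays of different samples of 1 transfectant correlated with r between 0.40 and 0.60 in Slug and between 0.38 and 0.61 in E47. Slug arrays correlated with E47 arrays with r between 0.14 and 0.54, so some agreed better than the arrays of Slug 2 or of E47 1 among themselves. These correlations are across probes, which are not independent replicates.

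The 8 arrays held values for 11292 to 12982 of 13056 probes. Averaged over spots and clones they gave 4325 genes, of which 3816 had both arrays of both replicates in Slug and in E47 and were tested. Replicates of Slug correlated across genes with r = 0.72 and differed by a median of 0.20 in size, and those of E47 with r = 0.73 and by 0.18. The SD of all values on an array was 0.640 to 0.695 in Slug and 0.446 to 0.545 in E47. Only ratios to the control are at hand, so no gene has a level of its own, and the epithelial identity of the line cannot be checked from its markers. Of the tested gene symbols, 3547 are also symbols of the dog annotation.

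No probe names SNAI2, so the gene of Slug was not measured. TCF3, the gene of E47, lay at 1.18, 1.05, 1.01 and 1.20 on the 4 Slug arrays and at 0.77, 0.87, 0.60 and 0.60 on the 4 E47 arrays. Values are listed here and below as sample 1 titled Cy3, sample 1 titled Cy5, sample 2 titled Cy3 and sample 2 titled Cy5. Every array of both transfectants was thus above the control, and the 4 Slug arrays were above the 4 E47 arrays. The difference of 0.41 had a 95% interval of -0.04 to 0.85 (limma adjusted p = 0.3483) and was not called. Whether this human clone reads the introduced E47 is not known from the labels, so TCF3 is no firm check of the label. SNAI1, the gene of Snail, lay at 0.91, 0.48, 0.42 and 0.86 in Slug and at 0.11, 0.28, -0.09 and 0.40 in E47. Its difference of 0.49 was not called either (95% interval -0.37 to 1.36, adjusted p = 0.5738).

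CDH1 stood at -2.46 ± 0.02 (SD, n = 2 replicates) in Slug and -2.07 ± 0.40 in E47, which describes the chosen signs. The difference between the transfectants was -0.39 (95% interval -0.89 to 0.11, adjusted p = 0.4242), and it turned to 0.28 when all arrays were scaled to one spread. The 3 clones for CDH1 differed between the transfectants by -0.46, -0.35 and -0.35. The first clone lay at -3.36 and -3.05 in the Slug replicates and at -2.26 and -3.22 in those of E47. The second had -3.93 and -4.30 in Slug and -3.42 and -4.12 in E47. The third clone stayed near the control, with -0.14 and 0.02 in Slug and 0.31 and 0.27 in E47. If 1 of the transfectants were turned, CDH1 would differ by 4.53.

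Between Slug and E47, 30 genes of 3816 differed at a limma adjusted p under 0.05, which is 0.786% of those tested. Of these, 10 were higher in Slug (0.262%) and 20 were lower in Slug (0.524%). All 30 differed by at least 2-fold. At an unadjusted p under 0.05 there were 618 genes (16.2%). On the arrays, the 4 Slug values of each of the 30 did not overlap the 4 E47 values, which held for 483 of all tested genes (12.7%). Over all tested genes the median difference was 0.02, the median absolute difference 0.21 and the median standard error 0.20. A further 63 of the 93 genes at least 2-fold apart were not called. In bulk RNA, a lower share of cells with a transcript and less of it in each cell cannot be told apart.

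The gene called with the largest difference in favour of Slug was LUM, which encodes the matrix proteoglycan lumican, and in favour of E47 it was GAS1, a membrane-anchored growth arrest protein. They were called under each of 19 alternative settings that kept the signs, and GNAI1, an inhibitory G protein subunit, under 18. The count of 30 rested on each sample: it was 14 without Slug 1, 27 without Slug 2, 8 without E47 1, 8 without E47 2 and 15 without either of the Snail samples, which serve only to estimate the spread. Of the 30, those still called were 7 without Slug 1 (LUM, ATF4, GAS1, GNAI1, ITGA7, PLA2G7 and APLP2), 6 without E47 1 (LUM, LRRC8C, GAS1, GNAI1, ITGA7 and ID2) and 5 without E47 2 (LUM, GAS1, GNAI1, PLA2G7 and MT1X). Without Slug 2 there were 12, and without either Snail sample 14. Leaving out either Snail sample leaves no spread within Snail to estimate. Both settings then repeat the fit of Slug and E47 alone, so among the 19 they are no separate checks. Quantile normalization of the arrays gave 37 calls, 6 higher and 31 lower in Slug, and 21 of them were among the 30. In the arrays titled Cy5 alone 29 genes were called, 17 of them among the 30, and in those titled Cy3 alone 4 genes, 2 of them among the 30. All 30 genes had the same direction in both sets of arrays. This follows from their Slug and E47 arrays not overlapping and is no separate check.

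**Figure D1:**
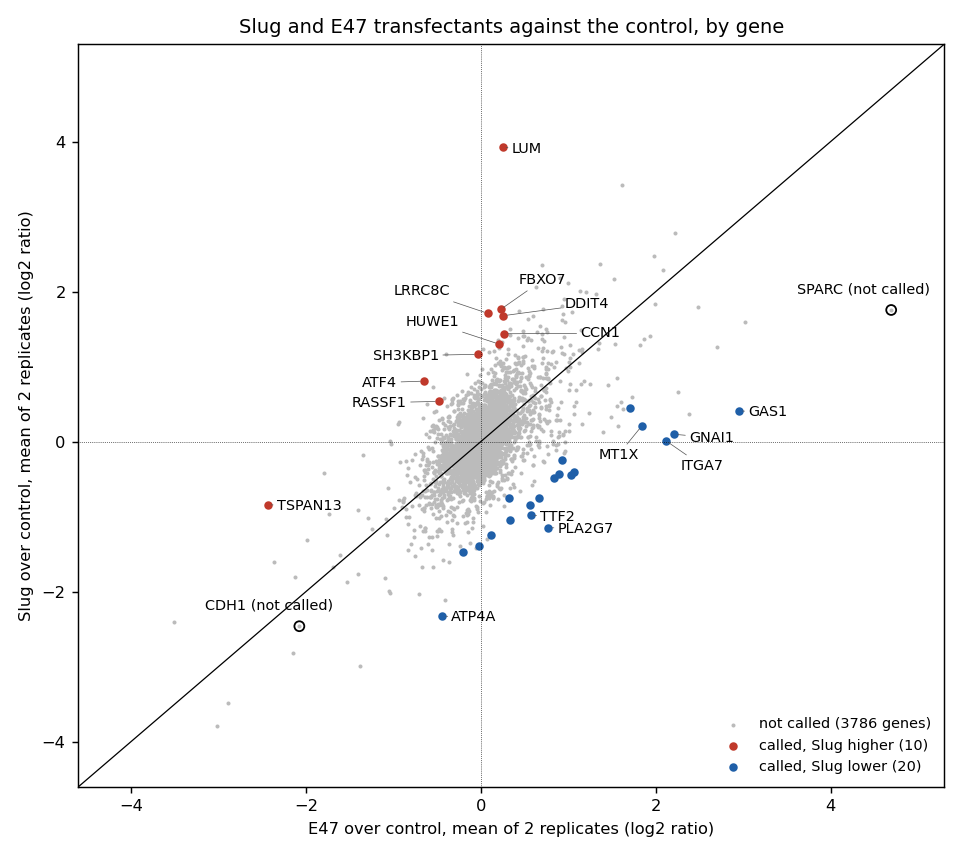
Each point is 1 of 3816 tested genes, with the mean log2 ratio of E47 over control (2 replicates) on the horizontal axis and that of Slug over control on the vertical axis; the diagonal marks equal ratios, and signs are the assumed ones. The 10 genes called higher in Slug lie above the diagonal with LUM at 3.92 in Slug and 0.25 in E47, the 20 called lower lie below it with GAS1 at 0.41 and 2.95, and the circled CDH1 and SPARC were not called.

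The count depends most on the signs. With Slug or E47 turned, 985 genes would be called between them (with Slug turned, 411 higher and 574 lower in Slug). With both turned the same 30 genes would be called with 20 higher and 10 lower. Of the 30 genes, 19 would still be called with 1 transfectant turned. Among them, GAS1, GNAI1, ITGA7, MT1X, SPRY2, GAS7 and TSPAN13 would keep their direction with Slug turned, and the other 12 would keep it with E47 turned. The 11 genes that would no longer be called are ATF4, RASSF1, PLA2G7, TTF2, APLP2, CD59, LIG4, C8orf76, ID2, SAMD9L and ATP6V1C1.

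The same fit placed each called difference against the control. Slug differed from the control in 834 genes (467 higher, 367 lower), which is 21.9% of those tested, and E47 in 213 genes (151 higher, 62 lower), which is 5.58%. Both comparisons use the control's RNA, whose own variation does not enter a test of a ratio against 0. The Slug count was 308 without Slug 1, and the E47 count was 108 without E47 1 and 26 without E47 2. When arrays were scaled to one spread, Slug had 406 genes and E47 315. As given above, the Slug arrays had the wider spread of values.

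Genes called above the control in E47 and not called against it in Slug formed the first group. Of the 20 genes lower in Slug than in E47, 8 were called against the control in E47 and not in Slug: GAS1, GNAI1, ITGA7, MT1X, C8orf76, ID2, ATP6V1C1 and GAS7. All lay above the control in E47, by 0.83 to 2.95. Not being called in Slug does not place a gene at the control there: C8orf76, ID2 and ATP6V1C1 lay below it on all 4 Slug arrays. ATP6V1C1, GAS7, EML4 and LIG4 rank beyond the 15 largest differences and are named here after their values were seen, because they complete the 20.

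GAS1, which binds Hedgehog ligands at the cell surface and was named for its expression in arrested cells, stood at 3.48, 2.92, 2.94 and 2.47 on the E47 arrays. On the Slug arrays it stood at 0.81, 0.24, 0.54 and 0.05. Every E47 array was at least 1.66 above the highest Slug array. The difference of -2.54 ± 0.21 (SE, 2 against 2 replicates; adjusted p = 0.0098) is a 5.83-fold lower level in Slug. Its 2 clones gave -3.03 and -2.06. In the Snail transfectant GAS1 had a mean of 0.22.

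GNAI1 encodes the alpha subunit of a G protein that inhibits adenylyl cyclase. It stood at 2.13, 1.91, 2.84 and 1.98 on the E47 arrays and at -0.13, 0.55, 0.32 and -0.34 on the Slug arrays, which lay on both sides of the control. The difference was -2.12 ± 0.22 (adjusted p = 0.0144), or 4.34-fold. ITGA7, the alpha chain of a laminin-binding integrin, showed the same layout. It had 2.00, 1.63, 2.42 and 2.41 in E47 and 0.34, 0.17, -0.41 and -0.05 in Slug, a difference of -2.10 ± 0.28 (adjusted p = 0.0283).

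MT1X, a metallothionein that binds zinc and copper, was more variable between arrays. The E47 arrays read 2.15, 2.31, 1.01 and 1.88 and the Slug arrays 0.70, -0.04, 0.02 and 0.13, so the groups were separated by 0.30 only. The difference was -1.63 ± 0.26 (adjusted p = 0.0458), with -2.05 in the arrays titled Cy5 and -1.22 in those titled Cy3. Metallothionein genes are close in sequence, and this clone may read more than 1 of them. MT2A, from the same list, differed by -0.70 (adjusted p = 0.1538), with means of 0.76 in Slug and 1.46 in E47.

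C8orf76 read 1.16, 0.90, 0.94 and 1.15 in E47 and -0.68, -0.46, -0.24 and -0.40 in Slug, with a difference of -1.48 ± 0.20 (adjusted p = 0.0310). ATP6V1C1, a subunit of the vacuolar proton pump, and GAS7, a growth arrest gene of the cytoskeleton, differed by -1.32 ± 0.22 (adjusted p = 0.0473) and -1.18 ± 0.18 (adjusted p = 0.0368). Their E47 arrays lay between 0.39 and 1.04 and between 0.72 and 1.22. On the Slug arrays ATP6V1C1 was below the control throughout, from -0.69 to -0.30, and GAS7 ran from -0.53 to 0.05. With 1 transfectant turned, GAS1 would differ by 3.36, GNAI1 by 2.31, ITGA7 by 2.13, MT1X by 2.04, GAS7 by 0.69, C8orf76 by 0.59 and ATP6V1C1 by 0.35, of which the last 2 would not be called.

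**Figure D2:**
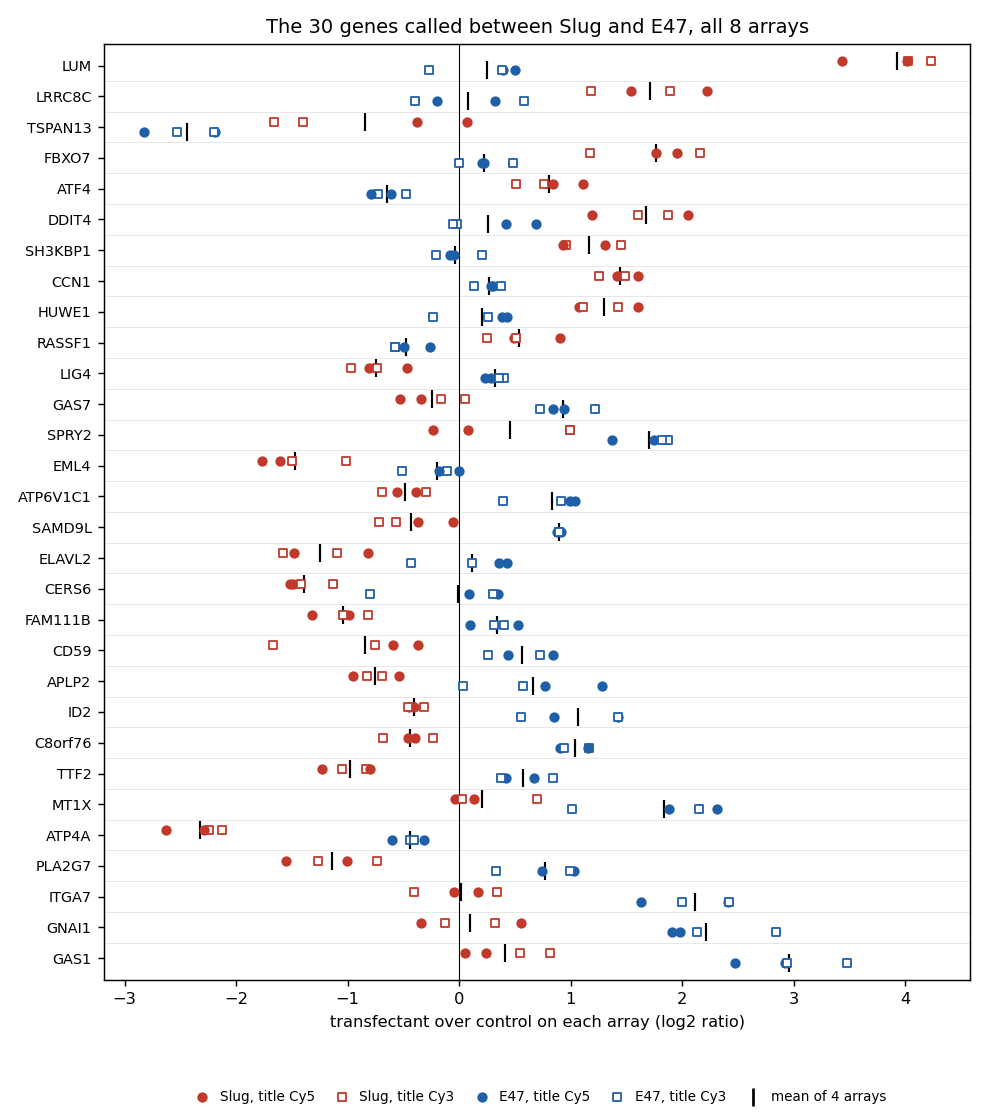
Log2 ratio of transfectant over control on each of the 8 arrays for the 30 called genes, ordered by the difference; circles are arrays titled Cy5, squares those titled Cy3, red is Slug, blue is E47, and the short bar is the mean of 4 arrays. In no gene do the red and blue points overlap; LUM has the widest gap between them, 2.93, and MT1X the narrowest, 0.30.

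ID2 was the called member among the ID genes, the inhibitors of E proteins. It stood at 0.55, 0.85, 1.42 and 1.42 on the E47 arrays and at -0.32, -0.41, -0.46 and -0.45 on the Slug arrays, so that all E47 arrays lay above the control and all Slug arrays below it. The difference was -1.47 ± 0.24 (adjusted p = 0.0473), a 2.77-fold lower level in Slug. Its 3 clones gave -1.32, -0.87 and -2.23. The 2 E47 replicates were apart, at 0.70 and 1.42, and the call held without E47 1, was lost without any other single sample and was lost when the median over spots and clones replaced the mean.

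The other ID genes were measured in the same direction and were not called. ID4 read 1.17, 1.17, 1.69 and 1.95 in E47 and 0.43, 0.26, 0.41 and 0.19 in Slug, a difference of -1.17 (95% interval -1.72 to -0.62, adjusted p = 0.0845) with no overlap between the arrays. ID3 had means of 1.56 in E47 and 0.84 in Slug, a difference of -0.72 (adjusted p = 0.2382). ID1 had means of 0.86 and 0.29, a difference of -0.57 (95% interval -1.13 to -0.01, adjusted p = 0.3046). In E47 all 4 ID genes were called above the control, with adjusted p from 0.0033 (ID4) to 0.0292 (ID1), and in Slug ID3 alone was (adjusted p = 0.0175). Over all genes 5.58% were called in E47, which fell from 213 genes to 26 without E47 2 and to 108 without E47 1, and 21.9% in Slug, which fell from 834 to 308 without Slug 1. Turning 1 transfectant would give differences of 0.65 for ID2, 1.82 for ID4, 2.40 for ID3 and 1.15 for ID1. In the Snail transfectant the means were -0.07 for ID2, 0.05 for ID4, 0.23 for ID3 and -0.15 for ID1.

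Other factors of epithelial-mesenchymal transition, the change of epithelial cells to a migratory form, were not called between the transfectants. TCF4, a further E protein, read 3.02, 3.27, 0.05 and 2.11 in Slug and 1.08, 0.47, 1.21 and 1.24 in E47. Its Slug arrays were spread so widely that the difference of 1.11 had a 95% interval of -0.28 to 2.50. TWIST1, a basic helix-loop-helix factor, was above the control on all 8 arrays, with means of 1.83 in Slug and 1.99 in E47. ZEB1, a zinc finger repressor of CDH1, had means of 0.89 and 0.55, and KLF8 had -0.07 and 0.02. Differences of TWIST1, ZEB1 and KLF8 were -0.15, 0.34 and -0.09, with adjusted p between 0.5833 and 0.9125.

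**Figure D3:**
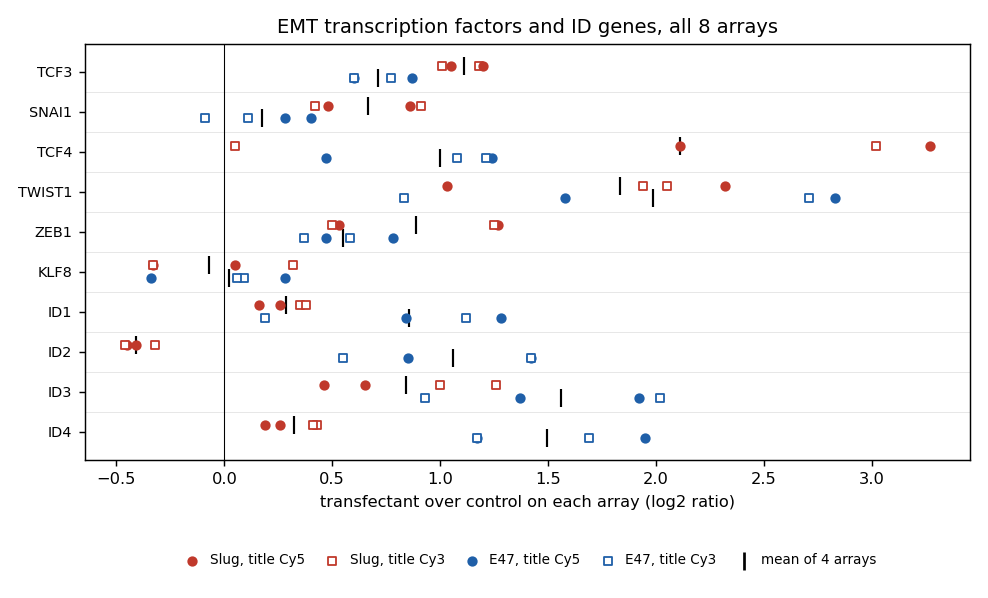
Log2 ratio of transfectant over control on each of the 8 arrays for 6 factors of epithelial-mesenchymal transition and the 4 ID genes; circles are arrays titled Cy5, squares those titled Cy3, red is Slug, blue is E47, and the short bar is the mean of 4 arrays. ID2 is the 1 called gene here, with Slug arrays from -0.46 to -0.32 and E47 arrays from 0.55 to 1.42, while for TCF4 the Slug arrays run from 0.05 to 3.27.

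SPRY2, a feedback inhibitor of receptor tyrosine kinase signalling, was called above the control in both transfectants and was lower in Slug than in E47. It read 1.87, 1.37, 1.82 and 1.75 in E47. On the Slug arrays it was 0.99 on both titled Cy3 and 0.08 and -0.24 on those titled Cy5, so the Slug values split by dye rather than by sample. The difference was -1.25 ± 0.17 (adjusted p = 0.0310), with -1.64 in the arrays titled Cy5 and -0.86 in those titled Cy3.

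Genes above the control in E47 and below it in Slug formed the second group. There were 4 called in all 3 comparisons in this way: PLA2G7, TTF2, APLP2 and SAMD9L. ATF4 was the 1 gene called on opposite sides in the other direction. The count of 5 was 3 without Slug 1, 1 without E47 1 and 0 without E47 2, and with 1 transfectant turned it would be 120.

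PLA2G7 encodes the enzyme that inactivates platelet-activating factor. It stood at -0.74, -1.55, -1.27 and -1.01 in Slug and at 0.99, 1.03, 0.33 and 0.74 in E47. Its difference was -1.92 ± 0.21 (adjusted p = 0.0161), or 3.78-fold. TTF2, which releases transcripts from RNA polymerase II, read -0.84, -1.23, -1.05 and -0.80 in Slug and 0.84, 0.42, 0.37 and 0.67 in E47, a difference of -1.55 ± 0.19 (adjusted p = 0.0224). For both genes the gap between the groups, 1.08 and 1.17, was wider than the range within either.

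APLP2, a relative of the amyloid precursor protein, had Slug arrays from -0.95 to -0.54. Its E47 arrays ran from 0.03 to 1.28, the ends of that range being the Cy3 and Cy5 arrays of 1 sample, and the difference was -1.42 ± 0.17 (adjusted p = 0.0224). SAMD9L, a gene induced by interferon, read 0.89, 0.88, 0.89 and 0.91 in E47 and -0.57, -0.37, -0.72 and -0.06 in Slug. Its difference was -1.32 ± 0.16 (adjusted p = 0.0224), and its 2 clones gave -1.05 and -1.59. After turning 1 transfectant the differences would be 0.37 for PLA2G7, 0.40 for TTF2, 0.09 for APLP2 and 0.46 for SAMD9L, none of them called.

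ATF4, the transcription factor through which the integrated stress response acts, was above the control in Slug and below it in E47. The Slug arrays read 0.76, 0.84, 0.51 and 1.11 and the E47 arrays -0.73, -0.61, -0.48 and -0.79. The replicates were close, with SDs of 0.01 in Slug and 0.03 in E47. The difference was 1.46 ± 0.16 (adjusted p = 0.0180), a 2.75-fold higher level in Slug. In the Snail transfectant the mean was -0.95. If 1 transfectant were turned, the difference would be 0.15 and not called.

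Genes called below the control in Slug and not called against it in E47 formed the third group. There were 7 called against the control in Slug and not in E47: ATP4A, CD59, FAM111B, CERS6, ELAVL2, EML4 and LIG4. ATP4A, the catalytic subunit of the gastric proton pump, stood at -2.24, -2.63, -2.13 and -2.29 in Slug and at -0.44, -0.32, -0.41 and -0.60 in E47. Both groups were tight and 1.53 apart. The difference was -1.88 ± 0.25 (adjusted p = 0.0283), a 3.69-fold lower level in Slug.

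CERS6, a ceramide synthase, read -1.13, -1.52, -1.42 and -1.49 in Slug. In E47 it read 0.35, 0.30 and 0.09 on 3 arrays and -0.80 on the array of E47 1 titled Cy3, with a difference of -1.37 ± 0.20 (adjusted p = 0.0327). ELAVL2, an RNA-binding protein best known from neurons, had the same array lowest in E47, at -0.43 against 0.11 to 0.43 on the other 3. Its Slug arrays ran from -1.58 to -0.82, and the difference was -1.36 ± 0.18 (adjusted p = 0.0355). EML4, a microtubule-associated protein, ran from -1.77 to -1.02 in Slug and from -0.51 to 0.00 in E47, with a difference of -1.27 ± 0.19 (adjusted p = 0.0368).

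CD59, which protects cells from complement, and LIG4, the ligase of DNA end joining, lay below the control on all 4 Slug arrays and above it on all 4 E47 arrays, as did FAM111B. CD59 read -0.76, -0.59, -1.67 and -0.37 in Slug and 0.26, 0.44, 0.72 and 0.84 in E47, a difference of -1.41 ± 0.21 (adjusted p = 0.0355). FAM111B ran from -1.32 to -0.82 and from 0.10 to 0.53, a difference of -1.38 ± 0.20 (adjusted p = 0.0355). LIG4 ran from -0.97 to -0.47 and from 0.23 to 0.40, a difference of -1.07 ± 0.18 (adjusted p = 0.0473). After turning 1 transfectant, ATP4A would differ by 2.76, EML4 by 1.68, CERS6 by 1.41, ELAVL2 by 1.13 and FAM111B by 0.71, while CD59 at 0.28 and LIG4 at 0.43 would not be called.

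Most genes higher in Slug than in E47 were called above the control in Slug and not called against it in E47. Of the 10 genes, 8 were called against the control in Slug and not in E47: LUM, LRRC8C, FBXO7, DDIT4, SH3KBP1, CCN1, HUWE1 and RASSF1. Their E47 means ran from -0.03 to 0.27, except that of RASSF1, which was -0.48 against 0.54 in Slug. LUM, which organises collagen fibrils, stood at 4.02, 3.43, 4.23 and 4.01 on the Slug arrays and at -0.27, 0.39, 0.38 and 0.50 on the E47 arrays. No E47 array came within 2.93 of the lowest Slug array. The difference was 3.68 ± 0.36 (adjusted p = 0.0144), a 12.8-fold higher level in Slug. In the Snail transfectant the arrays read 1.30, 1.84, 1.70 and 3.78, between the other transfectants in the mean (2.15).

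FBXO7, a subunit of SCF ubiquitin ligases, read 2.16, 1.76, 1.17 and 1.95 in Slug and 0.00, 0.22, 0.48 and 0.20 in E47, a difference of 1.54 ± 0.21 (adjusted p = 0.0312). HUWE1, a ubiquitin ligase of the HECT family, read 1.42, 1.07, 1.11 and 1.60 in Slug and -0.24, 0.43, 0.26 and 0.38 in E47, a difference of 1.09 ± 0.18 (adjusted p = 0.0473). DDIT4, a stress-induced inhibitor of the kinase complex mTORC1, read 1.87, 1.19, 1.60 and 2.05 in Slug and -0.02, 0.42, -0.06 and 0.69 in E47, a difference of 1.42 ± 0.19 (adjusted p = 0.0355). In all 3 genes each Slug array was above 1 and each E47 array below it.

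LRRC8C, a subunit of the volume-regulated anion channel, read 1.89, 1.54, 1.18 and 2.22 in Slug. In E47 the samples lay on opposite sides of the control, with 0.58 and 0.32 in E47 1 and -0.40 and -0.20 in E47 2, and the difference was 1.63 ± 0.27 (adjusted p = 0.0473). CCN1, a matrix-associated ligand of integrins, was even on the Slug arrays, at 1.25, 1.60, 1.49 and 1.41, and stood at 0.13, 0.28, 0.37 and 0.30 in E47. Its difference was 1.17 ± 0.18 (adjusted p = 0.0388). SH3KBP1, an adaptor in receptor endocytosis, ran from 0.93 to 1.45 in Slug and from -0.21 to 0.20 in E47, a difference of 1.20 ± 0.17 (adjusted p = 0.0355).

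RASSF1, a tumour suppressor with a Ras-association domain, had the smallest difference of the 30. It read 0.51, 0.49, 0.25 and 0.90 in Slug and -0.58, -0.50, -0.58 and -0.26 in E47, a difference of 1.02 ± 0.17 (adjusted p = 0.0473). TSPAN13, a tetraspanin, was below the control in both transfectants and less so in Slug. Its E47 arrays read -2.53, -2.83, -2.20 and -2.19, and its Slug arrays -1.66 and -1.40 where titled Cy3 and -0.38 and 0.07 where titled Cy5. The difference of 1.60 ± 0.27 (adjusted p = 0.0473) was 2.35 in the arrays titled Cy5 and 0.84 in those titled Cy3. With 1 transfectant turned, LUM would differ by 4.17, TSPAN13 by 3.28, FBXO7 by 1.99, DDIT4 by 1.94, LRRC8C by 1.79, CCN1 by 1.71, HUWE1 by 1.51 and SH3KBP1 by 1.13, while RASSF1 at 0.06 would not be called.

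Several of the largest differences were not called, and in most of them the replicates of 1 transfectant lay far apart. The 7 largest are named after their values were seen: SPARC, ITM2B, ITGA5, SRGN, CDKN1A, PTPRZ1 and CALD1. SPARC, a secreted matrix protein, stood at 3.78 and 4.57 on the arrays of Slug 1 and at -0.74 and -0.59 on those of Slug 2, against 4.29 to 5.25 on the E47 arrays. The difference of -2.94 thus had a 95% interval of -5.81 to -0.06 (adjusted p = 0.3013). Without Slug 1 it was -5.36, and without Slug 2 it was -0.52. Such a fit has a single Slug sample, whose own spread cannot be estimated.

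CALD1, the actin-binding caldesmon, and ITM2B, a membrane protein, also differed between the Slug samples. CALD1 read 3.88 and 0.04 in Slug 1 and -0.41 and -0.86 in Slug 2, against 1.29 to 2.72 in E47, and its difference was -1.60 (adjusted p = 0.3345). ITM2B read 1.95 and 0.73 in Slug 1 and 0.17 and -1.40 in Slug 2, against 1.95 to 2.65 in E47, and its difference was -2.02 (adjusted p = 0.1270). Without Slug 1 the differences of CALD1 and ITM2B were -2.90 and -2.99. Without Slug 2 they were -0.30 and -1.04.

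In ITGA5, the alpha chain of a fibronectin receptor, and CDKN1A, the cell cycle inhibitor p21, the E47 samples lay far apart. ITGA5 read -0.49 and 1.56 in E47 1 and 2.62 and 2.76 in E47 2, against 2.72 to 3.89 in Slug, and its difference was 1.82 (adjusted p = 0.2220). CDKN1A read -1.42 and 0.75 in E47 1 and 1.81 and 1.67 in E47 2, against 1.99 to 2.59 in Slug, and its difference was 1.65 (adjusted p = 0.2122). Without E47 2 the differences of ITGA5 and CDKN1A were 2.89 and 2.68, and without E47 1 they were 0.74 and 0.61. SRGN, the proteoglycan serglycin, differed by -1.70 (adjusted p = 0.1461) and PTPRZ1, a receptor phosphatase, by -1.60 (adjusted p = 0.3356). Their Snail replicates were also far apart, at -0.39 and -2.04 and at -0.91 and -3.39, and enter the shared estimate of the spread. Turning 1 transfectant would give 6.45 for SPARC, 5.04 for ITGA5, 4.36 for PTPRZ1, 3.05 for CDKN1A, 2.92 for CALD1, 2.74 for ITM2B and 2.52 for SRGN, all called.

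**Figure D4:**
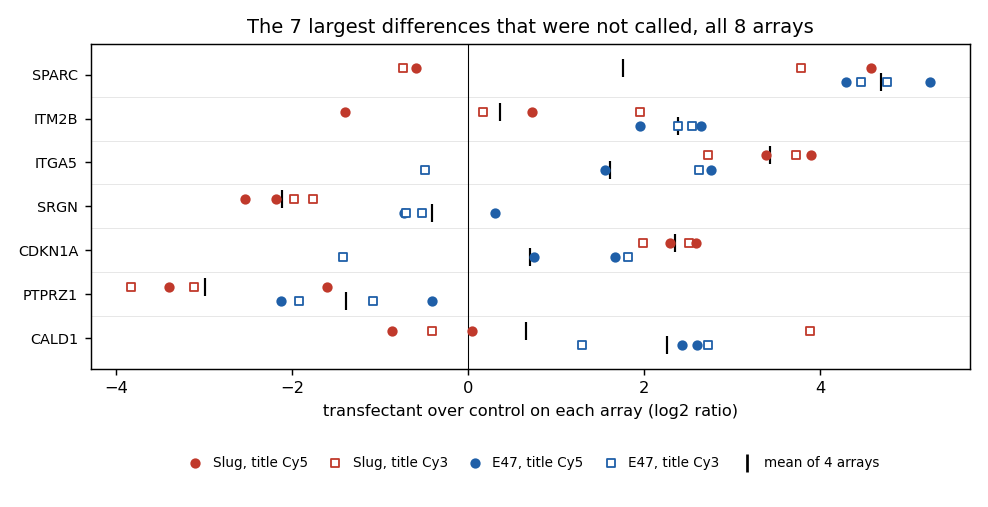
Log2 ratio of transfectant over control on each of the 8 arrays for the 7 largest differences that were not called; circles are arrays titled Cy5, squares those titled Cy3, red is Slug, blue is E47, and the short bar is the mean of 4 arrays. For SPARC the Slug points form separate pairs, 1 from each sample, near 4 and below 0, and for ITGA5 and CDKN1A 1 E47 array lies below 0.

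Across 24 gene lists, 9 members were called, 2 higher and 7 lower in Slug, and 16 lists had no called member. Lists held 6 to 42 tested genes each, so few that a list without a called member is not read as a result. The count of 9 was 5 without E47 1. The median differences of the lists are set beside 0.02 over all genes, of which 0.786% were called and 16.2% had an unadjusted p under 0.05, and no list was tested as a set. The 7 tested bHLH factors, inhibitors and targets had a median of -0.57, the lowest. ID2 was called, and 6 had an unadjusted p under 0.05, in both directions. In this list the largest difference was that of CDKN1A, 1.65 (adjusted p = 0.2122), which, like BHLHE40, a hypoxia-induced repressor at 1.01 (adjusted p = 0.1187), has the opposite sign to the ID genes. MYOD1, a muscle bHLH factor, differed by -0.03. The 6 factors of epithelial-mesenchymal transition had the highest median, 0.37, with 0 called by limma and 0 at an unadjusted p under 0.05.

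Junction, keratin and mesenchymal genes, which are commonly read to follow epithelial-mesenchymal transition, held no called member. Among 16 junction and polarity genes the median was -0.01 and 3 had an unadjusted p under 0.05. The largest difference was that of DSP, the desmosome protein desmoplakin, at -1.82, -1.44, -1.50 and -1.92 in Slug and -0.70, -0.56, -0.83 and -0.59 in E47. All 8 arrays were below the control and the groups did not overlap, and the difference had a 95% interval of -1.41 to -0.60 and an adjusted p of 0.0546. It was called, among other settings, when arrays were centred on their median (adjusted p = 0.0489). JUP, the junction protein plakoglobin, differed by 0.70 (adjusted p = 0.2519), and EPCAM, an epithelial surface protein, by -0.34 with a standard error of 1.04.

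Among 16 keratins and differentiation genes the median was 0.05, and 3 had an unadjusted p under 0.05. TFF1, a secreted trefoil peptide, had the largest difference, 1.37 (95% interval 0.27 to 2.48, adjusted p = 0.2220), with E47 arrays at -2.74, -2.43, -1.28 and -0.71 and Slug arrays from -0.82 to 0.20. KRT7, a keratin of simple epithelia chosen after its values were seen, read -0.37, -0.46, 0.58 and -0.47 in Slug and -1.52, -1.34, -1.02 and -1.49 in E47. Its difference of 1.16 had an adjusted p of 0.0546, and it was called, among other settings, with arrays scaled to one spread (adjusted p = 0.0368) or quantile-normalized (adjusted p = 0.0176). KRT8 and KRT18 differed by 0.40 and 0.27. Other members of the list were lower in Slug, with IL1RN at -0.67 and FXYD3 at -0.59 the furthest, neither called. Of 11 mesenchymal markers none was called, 2 had an unadjusted p under 0.05, and the median was 0.00. FN1, the gene of fibronectin, had means of 2.00 in Slug and 1.13 in E47 (difference 0.87, adjusted p = 0.1698). CDH2, that of N-cadherin, had 0.32 and 0.13. The largest differences of this list went the other way, with SPARC at -2.94 and CALD1 at -1.60, neither called.

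Matrix, integrin and protease genes differed gene by gene. Of 22 collagen and matrix genes LUM alone was called, 4 had an unadjusted p under 0.05, and the median was 0.12. COL1A2, a chain of type I collagen, ran the other way, with means of 1.60 in Slug and 3.02 in E47 and a difference of -1.42 (adjusted p = 0.1001) without overlap of the arrays. Of 20 integrin and focal adhesion genes ITGA7 alone was called and 8 had an unadjusted p under 0.05, with a median of 0.07. ITGA2, a collagen receptor chain, differed by 1.00 (adjusted p = 0.0987) and ITGA6, a laminin receptor chain, by -0.91 (adjusted p = 0.1034). Of 18 proteases and inhibitors 0 were called by limma and 4 had an unadjusted p under 0.05, with a median of 0.02. PLAU, the urokinase plasminogen activator, had the largest difference, 1.18 (95% interval 0.57 to 1.78, adjusted p = 0.1001), with Slug arrays from -0.18 to 0.68 and E47 arrays from -1.41 to -0.41.

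Signalling lists each held at most 1 called member, where 0.786% were called over all tested genes. None of 27 genes of TGF-beta and BMP signalling was called and 10 had an unadjusted p under 0.05 (16.2% over all genes), with a median of 0.08. SMAD3, which carries TGF-beta signals to the nucleus, had the largest difference, 0.87 (adjusted p = 0.1137), with all Slug arrays above the control and all E47 arrays below it. None of 28 Wnt genes was called and 3 had an unadjusted p under 0.05. The largest difference was that of the ligand WNT5B, 1.21 (adjusted p = 0.0989), with Slug arrays from 1.08 to 1.47 and E47 arrays from -0.19 to 0.15. Of 42 growth factor, receptor and MAPK genes SPRY2 alone was called and 10 had an unadjusted p under 0.05, with a median of 0.11. FGFR1, a fibroblast growth factor receptor, differed by 0.99 (adjusted p = 0.0666). Of 26 genes of G protein signalling and the cytoskeleton GNAI1 alone was called and 7 had an unadjusted p under 0.05. Their median was -0.04.

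Of 42 cell cycle and replication genes GAS1 alone was called and 8 had an unadjusted p under 0.05, with a median of -0.01. BUB1, a mitotic checkpoint kinase, differed by -1.23 (adjusted p = 0.0666) and E2F1, a transcription factor of S phase, by 0.93 (adjusted p = 0.0900). Of 30 apoptosis genes none was called, 4 had an unadjusted p under 0.05, and the anti-apoptotic BCL2L1 differed most, by 1.16 (adjusted p = 0.0642). Of 25 genes of angiogenesis and hypoxia none was called and 7 had an unadjusted p under 0.05. There SLC2A3, a glucose transporter, differed most, by -1.33 (adjusted p = 0.1071). It also differed most among 18 genes of glycolysis and lipid metabolism, of which none was called and 7 had an unadjusted p under 0.05 (again 16.2% over all genes). PPARG, a nuclear receptor of fat metabolism, differed there by -1.11 (adjusted p = 0.0507).

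Among 24 stress response genes ATF4 was called higher and MT1X lower in Slug, and 6 had an unadjusted p under 0.05. The median was 0.08, and ATF3, a factor of the same family as ATF4, differed by 0.80 (adjusted p = 0.1380). Of 12 solute carriers, ABC transporters and ion pumps ATP4A alone was called and 3 had an unadjusted p under 0.05. Their median was -0.10. No gene was called among 32 of interferon and antigen presentation, where TAP1, a peptide transporter, had the largest difference (-0.46, adjusted p = 0.4981) and 1 gene had an unadjusted p under 0.05. TAP1 turned to 0.04 without Slug 2 and to 0.14 in the arrays titled Cy5 alone. None was called among 15 genes of ribosome and translation (5 at an unadjusted p under 0.05), where RPL22 differed most, by -0.69 (adjusted p = 0.1205). None was called among 14 of mitochondrial respiration (5), where SDHD, a subunit of succinate dehydrogenase, differed by -0.93 (adjusted p = 0.1270). None was called among 34 of the proteasome and ubiquitin (9), where PSMD12, a proteasome subunit, differed by -0.85 (adjusted p = 0.1419).

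Markers of cell types foreign to a kidney epithelial line were read beside the others. Of 16 leukocyte markers 0 were called by limma and 3 had an unadjusted p under 0.05, with a median of -0.09. SRGN differed most, and PTPRC, the leukocyte surface protein CD45, had means of -0.66 in Slug and 0.15 in E47 (difference -0.81, adjusted p = 0.1034). Of 12 endothelial markers 0 were called and 3 had an unadjusted p under 0.05, with a median of 0.01. PROCR, the endothelial protein C receptor, differed most, by -1.23 (adjusted p = 0.1026), and VWF by 0.21. Ratios to the control do not tell whether these transcripts were present, and what such a clone reads was not tested.

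**Figure D5:**
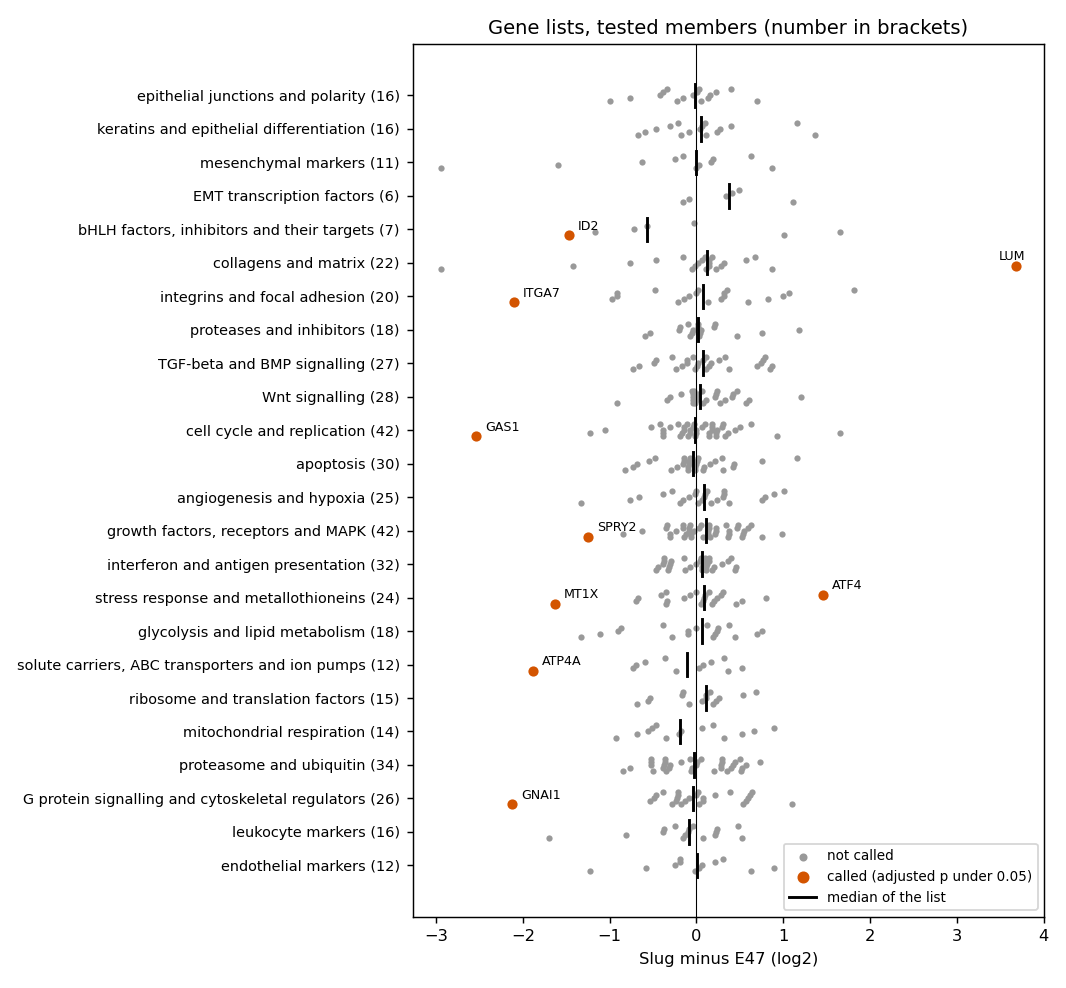
Slug minus E47 difference (log2) of each tested member of 24 gene lists, with called genes in orange and named, others in grey, and the median of each list as a bar; numbers in brackets are tested members, and vertical jitter within a list carries no meaning. Medians lie between -0.57 (bHLH factors, inhibitors and their targets) and 0.37 (EMT transcription factors), and 9 genes are called.

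Of the list genes with a probe, 40 were not tested because a replicate lacked an array. TIMP1, an inhibitor of matrix proteases, was above the control on every array with a value, from 1.86 to 3.66 on 4 Slug arrays and at 2.54, 3.12 and 3.66 on 3 E47 arrays. KRT19, a keratin of simple epithelia, was below it on every array with a value, from -3.01 to -1.44 on 4 Slug arrays and from -2.19 to -1.77 on 3 E47 arrays. HSPG2, the basement membrane proteoglycan perlecan, read 2.11, 2.26, 1.66 and 2.39 in Slug and 0.19, 0.60 and 0.79 on 3 E47 arrays. Its groups did not overlap, which held for others of the 40 too, among them GSK3A and DNAJB2. Such genes were not counted, and with fewer arrays a lack of overlap is easier to reach. VIM, the gene of vimentin, lay between -0.04 and 0.27 on 3 Slug arrays and between -1.27 and 0.41 on 4 E47 arrays.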

How the data were processed

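The authors deposited 1 table of log2 ratios of the channels of 2-colour cDNA arrays, with 13056 probes on each of 12 arrays and empty cells for missing values. The log base was checked on the values: 100.00% of the antilogs of values below -0.5 are whole thousandths within 0.00006 on the log2 scale, against 4.98% with natural logarithms. Numerator, scanner, background correction, normalization and filter: not given in the sources used here. Signal over background is unknown, and precision is limited by how many arrays there are.

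Of the probes, 8047 carried 1 gene symbol in the platform annotation and entered, 276 several and 4733 none. Turned ratios were averaged over spots of a clone, clones of a gene and the 2 arrays of a numbered sample, both of which were needed. limma 3.58.1 in R 4.3.3 fitted the 6 replicates of Slug, E47 and Snail without an intercept (3 residual degrees of freedom). The prior spread came from 4216 genes complete in at least 1 transfectant (4.85 degrees of freedom, SD 0.203). Tests were two-sided with Benjamini-Hochberg adjustment over 3816 genes, and an adjusted p under 0.05 was called. The procedure was tested on simulated data.

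Genes were named by a rule: the 15 largest called differences in each direction without overlap of arrays, the 6 largest in each direction on opposite sides of the control, up to 4 called members of each list or else its largest difference, and TCF3, SNAI1, SNAI2, CDH1, the ID genes, SPARC and CALD1. List members beyond this rule were picked after their values were seen. The members of the comparison and the lists were chosen with earlier results of these data known. Alternatives covered the samples in the fit, the replicate number as a block, samples left out, dyes, scaling, averaging, the prior and the signs. The numbers were not taken to pair the samples: deviations of same-numbered replicates correlated with r = -0.06 between Slug and E47, 0.02 between Slug and Snail and 0.23 between E47 and Snail.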

Additional observations from a re-analysis of the deposited data

Results flagged for a closer look

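In 12 of the 30 called genes all 4 Slug arrays lay on one side of the control and all 4 E47 arrays on the other. They are RASSF1 and ATF4, at 1.02 and 1.46 in Slug minus E47, and 10 genes below E47: PLA2G7 (-1.92), TTF2 (-1.55), C8orf76 (-1.48), ID2 (-1.47), APLP2 (-1.42), CD59 (-1.41), FAM111B (-1.38), ATP6V1C1 (-1.32), SAMD9L (-1.32) and LIG4 (-1.07). The difference itself was tested with limma in each, and whether a gene lies on opposite sides rests on the assumed signs. The 30 were called for their difference, and the same count over all tested genes is not given here. The 12 are thus not read as more than their share.

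Of 114 sets of 4 arrays, 1 for each named gene and transfectant, 3 had an array far from the others, with a gap to the nearest that exceeds Dixon's 95% critical share of the range. Chance gives about 1 in 20. LUM read -0.27 on the array of E47 1 titled Cy3, against 0.38 to 0.50 on the other E47 arrays. RPL22 read -0.56 on the array of E47 2 titled Cy3, against -0.24 to -0.19. KRT7 read 0.58 on the array of Slug 2 titled Cy3, against -0.47 to -0.37 on the other Slug arrays.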

How the results depend on the processing

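Apart from the signs, no alternative reversed a called gene; among the 57 genes named by value, TAP1 ranged from -0.96 to 0.04 without 1 replicate, the latter without Slug 2, and turned to 0.14 in the arrays titled Cy5 alone, and CDH1 to 0.28 with arrays scaled to one spread; neither gene was called in the comparison as reported. Each of the 30 calls other than GAS1 and LUM was lost under at least 1 of the 19 alternatives that keep the signs.

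The 30 genes called between Slug and E47, all at least 2-fold apart, were 15 with the Slug and E47 groups alone, 8 to 27 without 1 replicate of Slug or E47 or 15 without 1 of Snail, 4 in the arrays titled Cy3 alone and 16 with arrays scaled to one spread. Leaving out 1 Snail sample repeated the fit of the Slug and E47 groups alone and is no separate check. Of the 16 with arrays scaled to one spread, 14 were among the 30. With the replicate block there were 34, of which 27 were among the 30. With 12 arrays and the numbered sample as a random block (consensus correlation 0.02) there were 182, of which 71 were at least 2-fold apart, and all 30 remained. An alternative added after seeing the data, with an offset that does not turn with the sign, gave 260 and 77 (consensus correlation -0.10). At such correlations the 2 arrays of a sample count almost as separate replicates. The larger counts of these fits, here and below, are thus no added evidence. The other added alternative, the prior from the tested genes alone, gave 40, and clones fitted separately also gave 40. With Slug or E47 turned there were 985, of which 502 were at least 2-fold apart.

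The 9 called list members were 5 to 7 without 1 replicate, 3 in the arrays titled Cy3 alone, 14 after quantile normalization, 52 with the random block, 65 with the offset and 196 with 1 transfectant turned. The 5 genes on opposite sides were 0 to 6 without 1 replicate, 3 and 0 in the arrays titled Cy5 and Cy3 alone, 14 with the random block, 20 with the offset and 120 with 1 transfectant turned. Slug against the control, 834, was 308 to 839 without 1 replicate, 549 and 355 in the arrays titled Cy5 and Cy3 alone, 406 with arrays scaled, 421 after quantile normalization and 1299 with the offset. E47 against the control, 213, was 26 to 281 without 1 replicate, 44 in the arrays titled Cy3 alone, 408 after quantile normalization, 436 with the random block and 590 with the offset. Where 1 replicate of a group was left out, the lone sample is assumed to vary like the others.

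With Slug turned, these differences changed side: LUM -4.17, LRRC8C -1.79, FBXO7 -1.99, ATF4 -0.15, DDIT4 -1.94, SH3KBP1 -1.13, CCN1 -1.71, HUWE1 -1.51, RASSF1 -0.06, PLA2G7 0.37, ATP4A 2.76, TTF2 0.40, APLP2 0.09, CD59 0.28, FAM111B 0.71, CERS6 1.41, ELAVL2 1.13, DSP 2.34, TCF4 -3.11, SMAD3 -0.09, WNT5B -1.25, BCL2L1 -1.83, SLC2A3 2.73, TAP1 0.35, RPL22 1.30, SDHD 1.56, PSMD12 0.39, SRGN 2.52, PROCR 1.48, TCF3 -1.82, SNAI1 -0.84, CDH1 4.53, EML4 1.68, LIG4 0.43, ITGA5 -5.04, CDKN1A -3.05 and PTPRZ1 4.36. With E47 turned, these did: TSPAN13 -3.28, GAS1 3.36, GNAI1 2.31, ITGA7 2.13, MT1X 2.04, C8orf76 0.59, ID2 0.65, SAMD9L 0.46, TFF1 -2.21, SPARC 6.45, PLAU -0.71, SPRY2 2.16, ID1 1.15, ID3 2.40, ID4 1.82, CALD1 2.92, ATP6V1C1 0.35, GAS7 0.69, ITM2B 2.74 and KRT7 -1.52. With both turned, every difference keeps its size and changes side.

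With 2 replicates in each group, 618 genes had an unadjusted p under 0.05 and 30 an adjusted one, and a gene that misses the threshold is not shown to be equal in Slug and E47. Signal over background is unknown, so faint spots could not be set apart.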
